A study of Rattus norvegicus with 20 samples.

Results

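The carnitine acyltransferases and carnitine transporters of rat liver were examined as 7 genes, Cpt1a, Cpt1b, Cpt2, Crat, Crot, Slc25a20 and Slc22a5. They are 7 of 14218 genes with a symbol of their own on the array. All probe sets whose platform annotation gives one of these symbols were taken, which made 10 of the 31099 on the array (2 for Cpt1a, 3 for Crot and 1 for each of the other genes). Each probe set was followed on its own over the 4 diets. Liver RNA came from male Sprague-Dawley rats that arrived at 4 weeks of age, were acclimatised for 7 d and then ate their diet for 15 d. The diets held 0.2% sesamin, 0.2% episesamin, 0.2% sesamolin or no lignan, and no other difference between the groups is given in the labels. Each diet was fed to 7 rats, and 5 livers per diet were put on Affymetrix arrays, 1 array per rat, because the heaviest and the lightest rat of each group were left out. Sesamin and episesamin are epimeric lignans of sesame, and sesamolin has an ether oxygen between one of its aromatic groups and the furofuran core.

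Long-chain fatty acids cannot enter the mitochondrial matrix as acyl-CoA. Cpt1 in the outer mitochondrial membrane moves the acyl group onto carnitine, the translocase Slc25a20 carries the acylcarnitine across the inner membrane, and Cpt2 rebuilds the acyl-CoA inside. Crot and Crat do the same kind of transfer for medium-chain and short-chain acyl groups, Crot in peroxisomes and Crat in peroxisomes and mitochondria, and Slc22a5 brings carnitine into the cell. Cpt1a is the liver form of Cpt1, the step that malonyl-CoA inhibits, and Cpt1b is the form of muscle and brown fat. Several of these genes are textbook targets of the nuclear receptor Ppara, which turns on fatty acid oxidation in liver.

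Mean raw intensity per array ran from 159 to 271. By diet it averaged 236 with sesamin, 213 with episesamin, 221 with sesamolin and 247 without lignan. The arrays were therefore brought to one scale by quantile normalization before any comparison. Levels below are normalized intensities (mean ± SD, n = 5 livers per diet). Log2 changes are limma estimates ± SE on the log2(value + 5.85) scale over all 20 arrays, adjusted over 21067 probe sets, and a probe set is called at an adjusted p below 0.05. Each array holds a different rat, so the spread combines that between animals and that between arrays, which cannot be separated. Precision is limited by having 5 rats per diet. The tissue label was checked against 8 hepatocyte markers, of which 7 had a probe set and all 7 passed the filter, albumin at a mean of 13573 with sesamin, 14346 with episesamin, 14230 with sesamolin and 13869 without lignan on its brighter probe set. Of the 12 hepatocyte probe sets tested 1 was called lower with episesamin and with sesamolin, on 1 of 2 for Cps1, a urea cycle enzyme, with means of 5435 with sesamin, 4123 with episesamin (adjusted p = 0.0201), 3822 with sesamolin (adjusted p = 0.00398) and 5646 without lignan. Of 8 Kupffer cell and macrophage probe sets, limma called 0 with sesamin (1 at an unadjusted p below 0.05), 1 with episesamin and 5 with sesamolin, each of them lower, and their summed level was 3588 to 5498 with sesamin, 3661 to 4546 with episesamin, 2582 to 4153 with sesamolin and 4877 to 5780 without lignan. Of 8 endothelial probe sets, limma called 0 with sesamin (0 also at an unadjusted p below 0.05). With episesamin and with sesamolin 2 were lower, 1 of 2 for Kdr and 1 of 2 for Lyve1. The other Lyve1 probe set was lower without a call (adjusted p = 0.096 with episesamin and 0.0504 with sesamolin). The other Kdr probe set was higher without a call, at 25.6 with episesamin and 21.0 with sesamolin against 15.4 without lignan. Summed endothelial levels were 3149 to 3632 with sesamin, 2631 to 3091 with episesamin, 2684 to 3304 with sesamolin and 3418 to 3923 without lignan. Over all 21067 probe sets tested, the calls against the lignan-free diet were 54 with sesamin, 666 with episesamin and 769 with sesamolin. Of these, 54, 412 and 407 were higher and the rest lower. All of these Kupffer cell and endothelial probe sets passed the filter, and in whole-liver RNA fewer cells of a type and less RNA per cell cannot be told apart. Their part in the results below was not tested.

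Levels of most of the carnitine shuttle were higher with each of the 3 lignans. With sesamin, 6 of the 9 member probe sets tested were higher, against 0.256% of all probe sets tested. With episesamin 7 of 9 were higher, against 1.96% of all probe sets, and with sesamolin 7 of 9, against 1.93%. No member was called lower with any lignan. All 5 lignan livers lay above all 5 lignan-free livers in 6 of 9 with sesamin, 7 of 9 with episesamin and 8 of 9 with sesamolin, against 0.983%, 3.13% and 2.96% of all probe sets tested. The median log2 change of the 9 was 0.89 with sesamin, 1.63 with episesamin and 1.89 with sesamolin, whereas the median over all probe sets tested lay between -0.02 and 0 (-0.0049 with sesamin, -0.016 with episesamin and -0.011 with sesamolin). An F test over the 4 diets called 7 of 9, against 2.94% of all probe sets. The tenth probe set, the dimmest of the 3 for Crot, stayed near background and was not tested.

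**Figure D1:**
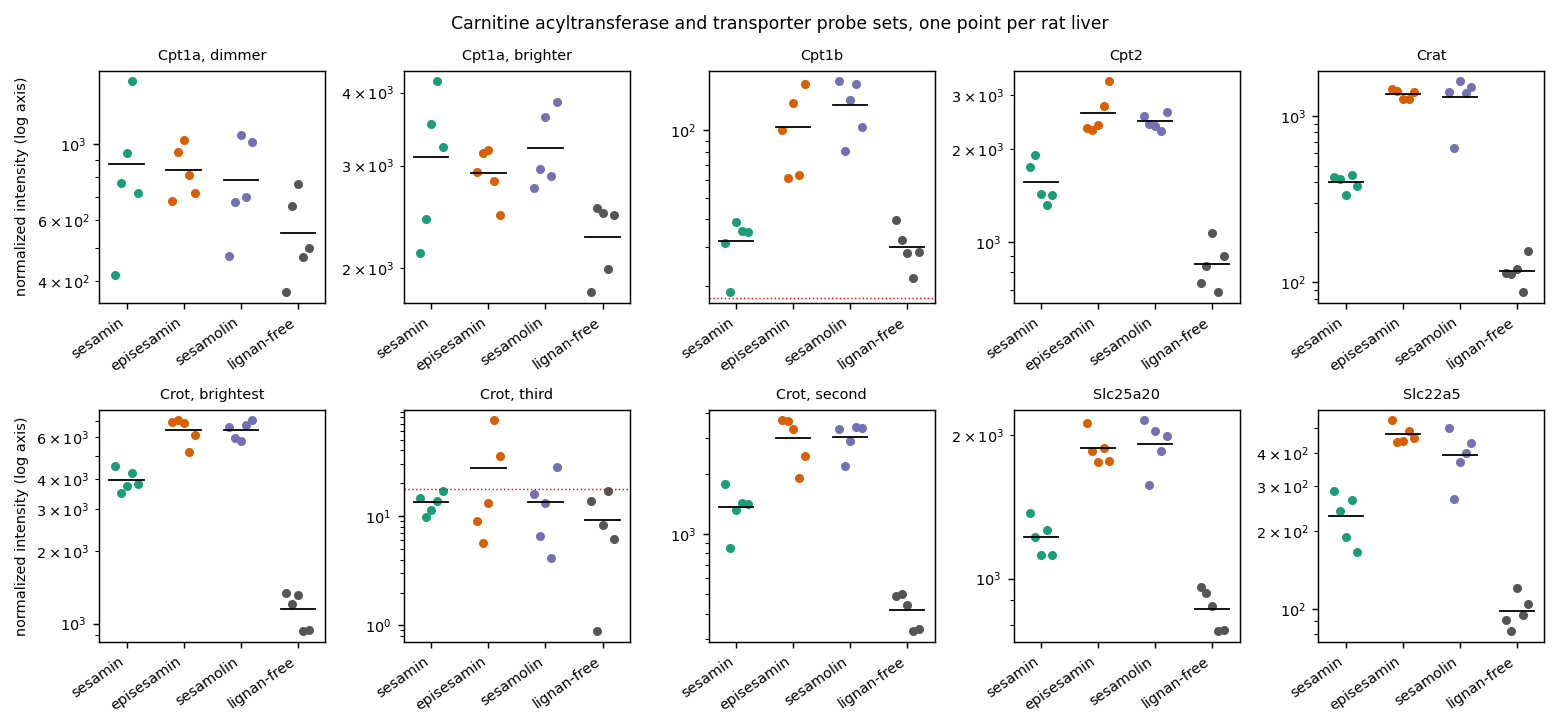
Normalized intensity (log axis) of the 10 probe sets in each liver, with sesamin, episesamin, sesamolin and lignan-free livers from left to right. Points are single rats, black lines are group means, and the red dotted line, drawn for Cpt1b and for the third Crot probe set, is the filter level of 17.8. For Crat the 5 lignan-free livers lie between 87.3 and 154 and every lignan liver lies above them.

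Crat, the acyltransferase for acetyl and other short-chain groups, had the largest log2 changes among the members with episesamin and sesamolin. Its level was 429.7, 419.7, 333, 442 and 379 in the 5 sesamin livers. Episesamin livers had 1461, 1420.1, 1270.1, 1259.7 and 1401, and sesamolin livers had 1403, 643, 1621, 1384 and 1498. Lignan-free livers had 114, 113, 120.3, 87.3 and 154. No lignan group overlapped the lignan-free group, and the sesamin livers also lay below every episesamin and sesamolin liver. Mean levels were 401 ± 44.4, 1362 ± 91.6 and 1309.9 ± 384 with sesamin, episesamin and sesamolin, and 118 ± 24.0 without lignan. The rise was 3.32-fold with sesamin (log2 change 1.73 ± 0.20, adjusted p = 5.56e-05). It was 11.2-fold with episesamin (3.49 ± 0.20, adjusted p = 9.49e-10) and 10.3-fold with sesamolin (3.37 ± 0.20, adjusted p = 1.58e-09). One sesamolin liver, replicate 2, stood far below the other 4 at 643. The same array was the lowest of its diet in 5 of the 9 tested member probe sets and had the lowest mean raw intensity of all 20 arrays, 159. Without it the Crat change with sesamolin was 3.60 (adjusted p = 9.41e-12). Lignan-free replicate 4 was the lowest of its own diet in 6 of the 9, at a mean raw intensity of 262.

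Crot, the peroxisomal carnitine octanoyltransferase, rose on both of its bright probe sets. On the brightest its level was 4557, 3522, 3753, 4252 and 3841 in sesamin livers. It was 6941, 7046, 6854, 5195 and 6143 in episesamin livers and 6606, 5934, 5801, 6733 and 7046 in sesamolin livers. Lignan-free livers had 1347, 1204, 1311, 926 and 936, less than any lignan liver. The rise was 3.50-fold with sesamin (1.81 ± 0.12, adjusted p = 7.06e-08), 5.63-fold with episesamin (2.49 ± 0.12, adjusted p = 1.95e-10) and 5.64-fold with sesamolin (2.50 ± 0.12, adjusted p = 1.95e-10). The second probe set, which averaged 1356 ± 334, 3009 ± 795 and 3044 ± 528 with sesamin, episesamin and sesamolin and 418 ± 84.4 without lignan, gave larger changes with episesamin (2.81 ± 0.21) and sesamolin (2.85 ± 0.21) and a similar one with sesamin (1.67 ± 0.21). The third probe set had group means of 13.3, 27.7 and 13.6 with sesamin, episesamin and sesamolin and 9.19 without lignan. Only 3 of its 20 values exceeded the filter level, among them 74.9 and 35.4 in 2 episesamin livers, so it gives no fold.

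Slc22a5, the sodium-dependent carnitine carrier of the plasma membrane, rose with each lignan. It read 287, 239.9, 191, 265 and 167 in sesamin livers. Episesamin livers had 536, 443, 447, 487 and 460.4, and sesamolin livers had 500.4, 266, 371, 403 and 440.5. The lignan-free livers read 90.6, 82.1, 121, 94.8 and 105, so no lignan liver reached down to them. The change was 1.16 ± 0.16 with sesamin (2.23-fold, adjusted p = 0.000819), 2.21 ± 0.16 with episesamin (4.63-fold, adjusted p = 3.83e-08) and 1.93 ± 0.16 with sesamolin (3.80-fold, adjusted p = 2.70e-07). Without normalization between arrays the sesamin call ended (1.06, adjusted p = 0.149). Of 4 kidney tubule markers, chosen because kidney takes up carnitine through this carrier, 2 passed the filter (Lrp2 and Slc34a1), and limma called 0 of them with any lignan (also 0 at an unadjusted p below 0.05).

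Cpt2, the carnitine palmitoyltransferase on the matrix side, rose by less than Crat and Crot. Sesamin livers had 1752, 1914, 1437, 1323 and 1423. Episesamin livers had 2338, 2314, 2401, 2754 and 3321, and sesamolin livers had 2569, 2413, 2371, 2296 and 2648. In lignan-free livers the levels were 739, 834, 1075, 689 and 902. The 3 steps in level did not overlap: every sesamin liver lay above the lignan-free livers and below the livers of both other lignans. The change was 0.89 ± 0.13 with sesamin (1.85-fold, adjusted p = 0.00183), 1.63 ± 0.13 with episesamin (3.09-fold, adjusted p = 1.73e-07) and 1.55 ± 0.13 with sesamolin (2.92-fold, adjusted p = 3.96e-07). The sesamin call ended without normalization between arrays (adjusted p = 0.134), without the 4 arrays numbered 1 (0.0699) and with only the 2 groups in the fit (0.0574).

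Slc25a20, the carnitine-acylcarnitine translocase of the inner membrane, had the smallest changes of the genes called with all 3 lignans. Its level was 1375, 1222, 1121, 1265 and 1121 in sesamin livers. It was 2117, 1854, 1758, 1883 and 1764 with episesamin and 2146, 1572, 2044, 1849 and 1986 with sesamolin. Lignan-free livers had 959.5, 934, 878, 775 and 781, again below all others. The change was 1.11 ± 0.10 with episesamin (2.16-fold, adjusted p = 7.88e-07) and 1.14 ± 0.10 with sesamolin (2.21-fold, adjusted p = 5.19e-07). Sesamin gave 0.49 ± 0.10 (1.41-fold, 95% interval 0.28 to 0.71, adjusted p = 0.0444), and this call ended in 22 of 35 alternatives. Among these were median scaling (0.42, adjusted p = 0.515), no normalization (0.43, adjusted p = 0.9997) and leaving out any one of the 5 sesamin livers or of lignan-free livers 2 to 5 (adjusted p of 0.0542 to 0.153). The episesamin call ended without normalization (0.87, adjusted p = 0.0514).

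Cpt1b, the muscle form of the outer-membrane enzyme, was dim in liver and separated the lignans. It read 31.2, 18.8, 38.7, 35.3 and 35.1 in sesamin livers. Episesamin livers had 100.4, 61.0, 133, 62.9 and 162, and sesamolin livers had 166, 80.6, 137, 162 and 104. Lignan-free livers read 39.7, 32.3, 28.1, 21.9 and 28.4. Sesamin livers overlapped the lignan-free livers, while every episesamin and sesamolin liver lay above both groups. With sesamin the log2 change was 0.06 ± 0.26 (95% interval -0.48 to 0.59, adjusted p = 0.992), so a rise of up to 1.51-fold lies within the interval. Episesamin gave 1.53 ± 0.26 (2.89-fold, adjusted p = 0.00131) and sesamolin 1.89 ± 0.26 (3.70-fold, adjusted p = 0.000144). All 20 values exceeded the filter level of 17.8, but sizes at this level move with the offset. Raising it to 16 gave log2 changes of 1.31 with episesamin and 1.63 with sesamolin. With no offset and values floored at 1 they were 1.71 and 2.08.

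Cpt1b marks muscle and fat, so markers of both tissues and the neighbouring gene are given beside it. Of 14 skeletal and heart muscle genes listed, 12 had a probe set and 6 passed the filter on at least 1. Acta1, Myh4 and Mb stayed at group means between 0.911 and 5.06 in all diets. Ckm, the muscle creatine kinase, was at 16.1 with sesamin, 31.5 with episesamin (adjusted p = 0.0397), 26.9 with sesamolin (adjusted p = 0.075) and 15.1 without lignan. The summed level of the list, which rests almost wholly on 5 Myh1 probe sets, was 12591 to 16625 with sesamin, 14772 to 18127 with episesamin, 14989 to 19966 with sesamolin and 14116 to 17752 without lignan. Of 6 tested adipocyte probe sets, limma called 0 with sesamin (2 at an unadjusted p below 0.05), 1 with episesamin and 1 with sesamolin, which was Cidea, a lipid droplet protein, in both. The summed level of all 9 adipocyte probe sets, tested or not, was 325 to 464 with sesamin and 541 to 669.6 with episesamin. It was 462 to 804 with sesamolin and 347 to 616 without lignan, and Adipoq and Lep did not pass the filter. Cidea alone had means of 75.8 with sesamin, 210 with episesamin, 235 with sesamolin and 47.9 without lignan. Other adipocyte genes went both ways with episesamin, and none of the following was called. Lpl read 197 against 162 without lignan, Cfd 105 against 131 and Fabp4 34.2 against 42.3. The part of muscle or fat RNA in the Cpt1b values was not tested. Chkb, a choline kinase gene, lies 118 bases from Cpt1b on chromosome 7 (chr7:122370974-122380473 for Cpt1b and chr7:122380592-122385102 for Chkb, GRCr8). It changed by 0.54 ± 0.13 with sesamolin (adjusted p = 0.0223), and by 0.23 ± 0.13 with episesamin (adjusted p = 0.372) and 0.07 ± 0.13 with sesamin (adjusted p = 0.972), neither of which passed.

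Cpt1a, the liver enzyme of the regulated first step, did not pass the test with any lignan. On its brighter probe set, sesamin livers had 2125, 2432, 3536, 4183 and 3228. Episesamin livers had 2922, 3151, 3184, 2821 and 2473, and sesamolin livers 2745, 2962, 3636, 2873 and 3857. Lignan-free livers had 1821, 2534, 2486, 1991 and 2473. Sesamolin livers all lay above the lignan-free livers. The sesamin livers overlapped them, as did the episesamin livers, of which one at 2473 lay below the highest lignan-free liver at 2534. The log2 change was 0.42 ± 0.17 with sesamin (95% interval 0.08 to 0.77, adjusted p = 0.642), 0.37 ± 0.17 with episesamin (0.02 to 0.72, adjusted p = 0.253) and 0.51 ± 0.17 with sesamolin (0.16 to 0.85, adjusted p = 0.0998). Each of these intervals lies above 0 before adjustment. On this probe set they allow a rise of at most 1.71-, 1.64- and 1.81-fold with sesamin, episesamin and sesamolin. The dimmer probe set averaged 872 ± 408, 837 ± 148 and 783 ± 246 with sesamin, episesamin and sesamolin and 553 ± 158 without lignan. Its changes were 0.58 ± 0.28, 0.62 ± 0.28 and 0.49 ± 0.28 for the 3 lignans (adjusted p = 0.757, 0.267 and 0.398). The 95% intervals of this dimmer probe set were wider and reached 2.26-, 2.33- and 2.12-fold. With episesamin its interval also lay above 0 before adjustment (0.03 to 1.22). The sesamin livers spread widely on it, between 417 and 1519.

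**Figure D2:**
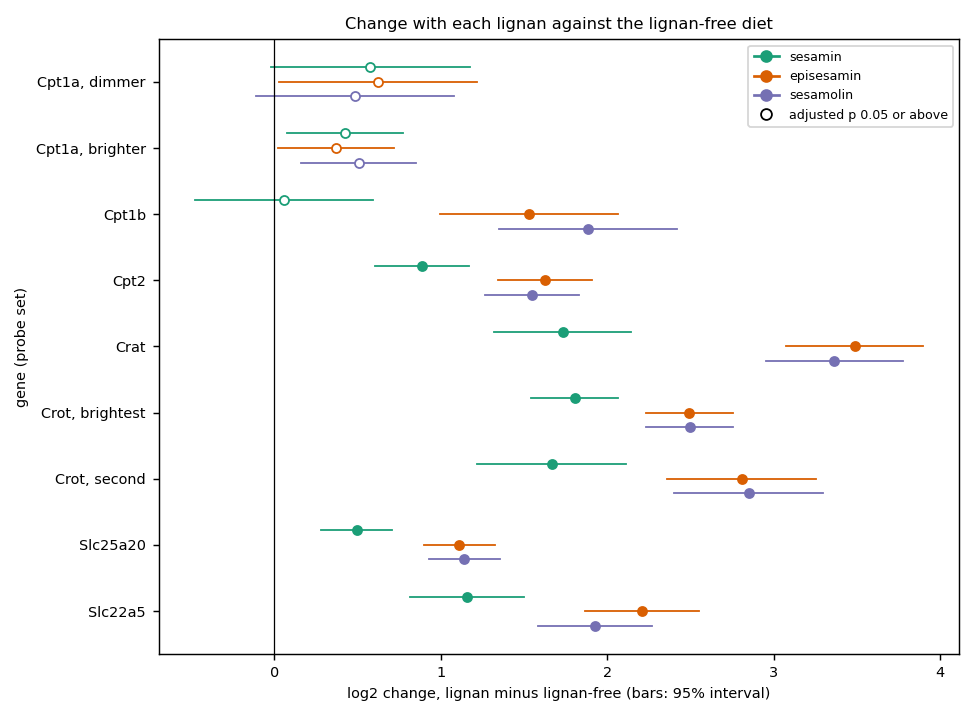
Log2 change of the 9 tested probe sets with sesamin, episesamin and sesamolin against the lignan-free diet (horizontal axis), with 95% intervals. Filled points passed an adjusted p of 0.05 and open points did not: the open points are both Cpt1a probe sets with each lignan and Cpt1b with sesamin.

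The promoter windows of the members are shown because 6 of the genes rose with at least one lignan while Cpt1a did not pass. RefSeq windows on GRCr8, from 250 bases before to 50 bases after an annotated start, were at hand for 6 of the 7 genes, and the sequence up to the start is printed for Crat and Slc25a20, which hold a match to the motif bound by Ppara with its partner Rxr, for Crot, which has the lowest adjusted p among the members with each lignan, and for Cpt1a. Both strands were searched for AGGTCANAGGTCA, a direct repeat with 1 free base between the repeats, at 10 or more of its 12 fixed letters, and for GGGCGG, the GC box. Matches that lie wholly within a printed stretch are in capitals. Not marked are a GC box that spans the start of Slc25a20 and those 19 bases after the start of Crat and 43 after that of Crot.
Crat, chr3:34087100-34087349, minus strand: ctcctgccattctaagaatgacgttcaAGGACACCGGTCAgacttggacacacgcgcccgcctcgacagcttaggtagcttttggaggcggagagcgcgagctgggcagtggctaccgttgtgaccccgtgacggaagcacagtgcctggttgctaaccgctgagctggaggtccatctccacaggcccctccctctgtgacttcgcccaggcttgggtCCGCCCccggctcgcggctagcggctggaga
Slc25a20, chr8:118243323-118243572, plus strand: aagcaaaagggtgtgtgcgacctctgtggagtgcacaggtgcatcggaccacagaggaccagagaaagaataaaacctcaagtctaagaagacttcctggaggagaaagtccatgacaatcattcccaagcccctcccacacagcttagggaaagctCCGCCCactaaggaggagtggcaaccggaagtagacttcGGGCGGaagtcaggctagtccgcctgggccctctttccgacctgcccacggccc
Slc25a20 after its start, chr8:118243580-118243608, plus strand: cttaatgtAGGTGAAAGGTCGgtgtagcc
Crot, chr4:26052874-26053123, plus strand: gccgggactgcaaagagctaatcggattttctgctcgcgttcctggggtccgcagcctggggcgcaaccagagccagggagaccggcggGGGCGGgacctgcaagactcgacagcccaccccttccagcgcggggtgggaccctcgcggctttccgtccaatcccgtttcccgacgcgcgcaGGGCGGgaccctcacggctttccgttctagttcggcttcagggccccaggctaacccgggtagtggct
Cpt1a, chr1:209995910-209996159, plus strand: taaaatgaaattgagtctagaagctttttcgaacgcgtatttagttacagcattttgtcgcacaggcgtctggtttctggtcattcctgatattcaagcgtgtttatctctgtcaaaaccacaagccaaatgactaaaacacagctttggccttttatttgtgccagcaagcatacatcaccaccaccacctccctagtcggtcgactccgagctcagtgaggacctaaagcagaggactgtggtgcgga

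The repeat was matched at 10 of 12 letters 223 bases before the start of Crat and 16 bases after the start of Slc25a20, and the best match in the other 4 windows had 7 or 8 letters. Of 33469 RefSeq promoter windows of 300 bases, 3.77% hold a match at that level. A GC box stood in 5 of the 6 windows, Cpt1a being without one, and in 33.1% of all windows, and in Crat and Slc25a20 no GC box overlapped the repeat. A letter match describes the sequence only, and a window without one says nothing of sites elsewhere. For 4 of the 6 genes the start of the window lies inside the annotated span of the gene, 21395 bases in for Crot, 2279 for Cpt1a, 529 for Cpt2 and 168 for Slc22a5. For Crat and Slc25a20 it is the first base of the span.

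Episesamin and sesamin differ in configuration at one carbon and were fed at the same dose and for the same time. Episesamin gave higher levels than sesamin for 7 of 9 member probe sets, against 0.617% of all probe sets tested, and in all 7 the episesamin livers lay above every sesamin liver (1.82% of all probe sets). Crat differed most, by 1.76 ± 0.20 (3.38-fold, adjusted p = 0.000131), followed by Cpt1b at 1.47 ± 0.26 (2.78-fold, adjusted p = 0.00664). Slc22a5 differed by 1.05 ± 0.16 (2.07-fold, adjusted p = 0.00233), Cpt2 by 0.74 ± 0.13 (1.67-fold, adjusted p = 0.0101) and Slc25a20 by 0.62 ± 0.10 (1.53-fold, adjusted p = 0.0040). Crot differed by 0.69 ± 0.12 on the brightest probe set (adjusted p = 0.00993) and by 1.14 ± 0.21 on the second (adjusted p = 0.0118). The Cpt1a probe sets did not pass, with 95% intervals of -0.40 to 0.29 on the brighter and -0.55 to 0.64 on the dimmer. The count depended on the scaling and the fit, with 4 called when arrays were scaled to a common median, 4 with only the 2 groups in the fit, and 1, Crat, without normalization.

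Sesamolin, which carries the extra ether oxygen, also gave higher levels than sesamin for 7 of 9 probe sets, against 0.56% of all probe sets tested. Cpt1b differed by 1.83 ± 0.26 (3.55-fold, adjusted p = 0.000871) and Crat by 1.63 ± 0.20 (3.10-fold, adjusted p = 0.00018). Slc22a5 differed by 0.77 ± 0.16 (adjusted p = 0.0281), Cpt2 by 0.66 ± 0.13 (adjusted p = 0.0227), Slc25a20 by 0.65 ± 0.10 (adjusted p = 0.00267) and Crot by 0.69 ± 0.12 on the brightest and 1.18 ± 0.21 on the second probe set (adjusted p = 0.00914 for each). In 6 of the 7 the groups did not overlap (1.78% of all probe sets). The exception was Slc22a5, where sesamolin replicate 2 at 266 lay below sesamin replicate 1 at 287. The Slc22a5 call ended in 11 of 35 alternatives and the Cpt2 call in 9, with adjusted p of up to 0.436 for Slc22a5 and 0.361 for Cpt2. Among them were leaving out sesamin replicates 3 or 5 or sesamolin replicates 1 or 5 for both genes, sesamolin replicates 3 or 4 for Slc22a5 and sesamin replicate 4 for Cpt2. With only the 2 groups in the fit 3 were called, and without normalization 2, Cpt1b and Crat. The Cpt1a probe sets did not pass, with 95% intervals of -0.26 to 0.43 on the brighter and -0.69 to 0.51 on the dimmer.

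Sesamolin and episesamin gave levels that the test did not separate. limma called 0 of the 9 member probe sets (0 also at an unadjusted p below 0.05), against 0.00475% of all probe sets tested. The 95% interval of the difference was -0.26 to 0.26 for the brightest Crot probe set, -0.18 to 0.24 for Slc25a20, -0.36 to 0.20 for Cpt2 and -0.53 to 0.29 for Crat. Slc22a5 had the interval -0.63 to 0.06 and Cpt1b -0.18 to 0.89, so for these 2 genes differences of 1.54- and 1.85-fold are within reach of the error. The second Crot probe set was also less precise, at -0.41 to 0.49. Cpt1a had -0.21 to 0.48 on the brighter and -0.73 to 0.46 on the dimmer probe set. For Crat, Crot, Cpt2, Slc25a20 and Slc22a5 the order of levels was thus lignan-free lowest, then sesamin, then episesamin and sesamolin, which were not told apart. For Cpt1b, sesamin and the lignan-free diet were not told apart either.

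**Figure D3:**
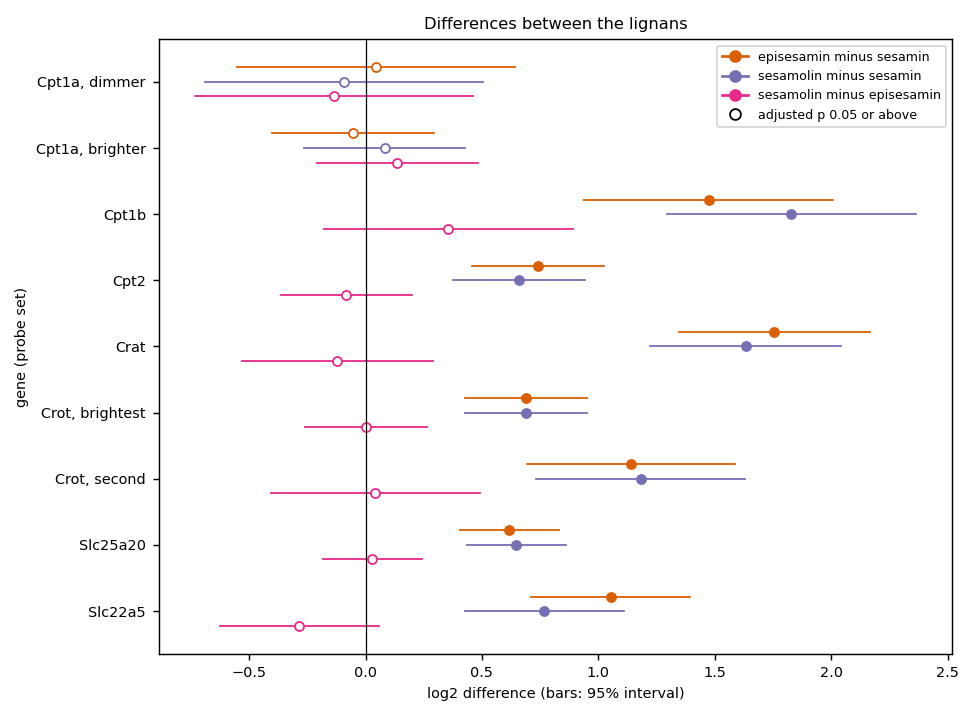
Log2 difference between lignans for the 9 tested probe sets (horizontal axis), with 95% intervals, for episesamin minus sesamin, sesamolin minus sesamin and sesamolin minus episesamin. Filled points passed an adjusted p of 0.05. The first 2 differences lie above 0 for every gene except Cpt1a, and all intervals of sesamolin minus episesamin include 0.

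The log2 value of one gene less that of another was taken in each liver for 3 pairs of genes, with each probe set of Cpt1a and Crot. The pairs were chosen after the changes above were known, so the differences are a description with no test (n = 5 livers per diet). Cpt2 less Cpt1a was on average 0.46 higher with sesamin, 1.26 higher with episesamin and 1.04 higher with sesamolin than without lignan on the brighter Cpt1a probe set, and 0.31, 1.01 and 1.06 higher on the dimmer one. On both probe sets the episesamin and the sesamolin livers lay apart from the lignan-free livers and the sesamin livers overlapped them. In the sesamin livers the value on the brighter probe set ran from -1.66 to -0.28, against -1.60 to -1.21 in lignan-free livers.

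Cpt1b less Cpt1a differed from the lignan-free mean by -0.37 with sesamin, 1.16 with episesamin and 1.38 with sesamolin on the brighter Cpt1a probe set, and by -0.52, 0.91 and 1.40 on the dimmer one. Of these, only the sesamolin livers on the brighter probe set lay apart from the lignan-free livers. Sesamolin exceeded sesamin by 1.75 on the brighter probe set and 1.92 on the dimmer one with no overlap. Episesamin exceeded sesamin by 1.53 and 1.43, and these groups overlapped on the dimmer probe set. Crat less Crot differed from the lignan-free mean by -0.07 with sesamin, 0.99 with episesamin and 0.87 with sesamolin on the brightest Crot probe set, and by 0.06, 0.68 and 0.52 on the second. Only the episesamin livers on the brightest probe set lay apart from the lignan-free livers. Episesamin exceeded sesamin by 1.07 on the brightest probe set with no overlap, and by 0.62 on the second, where the groups overlapped.

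**Figure D4:**
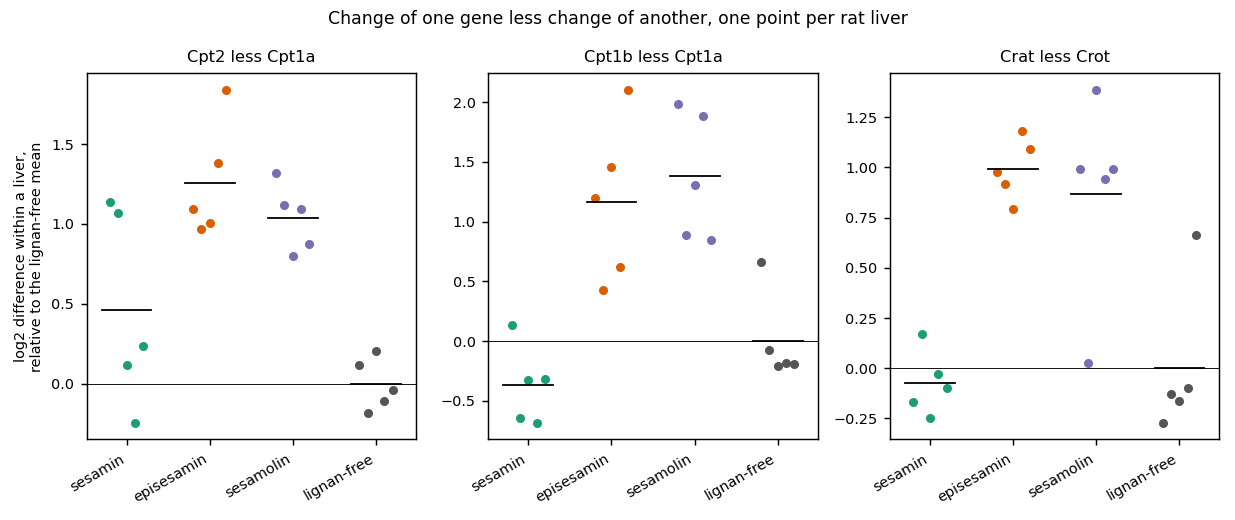
Log2 value of one gene less that of another in each liver, relative to the lignan-free mean (vertical axis), for Cpt2 less Cpt1a, Cpt1b less Cpt1a (brighter Cpt1a probe set) and Crat less Crot (brightest Crot probe set), by diet. Points are rats and lines are means. Episesamin and sesamolin means lie 1.26 and 1.04 above the lignan-free mean in the first panel, 1.16 and 1.38 in the second and 0.99 and 0.87 in the third, and single livers overlap the lignan-free livers for episesamin in the second panel and for sesamolin in the third.

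Genes that supply carnitine or act beside the shuttle were counted in the same fit. Of 6 tested probe sets for 5 genes of carnitine synthesis, limma called 0 with any lignan (1 with each at an unadjusted p below 0.05), and Bbox1, the last enzyme of that route, had log2 values of -0.18 ± 0.08 with episesamin and -0.17 ± 0.08 with sesamolin on 1 of its probe sets (adjusted p = 0.27 and 0.276). Of 8 other carnitine acyltransferase and transporter genes, 6 had a probe set and 4 were tested, Cpt1c, Slc22a4, Slc16a9 and Slc25a29, with 0 called and 0 at an unadjusted p below 0.05 (adjusted p = 0.341 or more in the 3 comparisons with the lignan-free diet). Among 14 probe sets for the malonyl-CoA control of Cpt1, Mlycd, which breaks malonyl-CoA down, rose by 0.89 ± 0.13 with episesamin (adjusted p = 0.000379) and 0.78 ± 0.13 with sesamolin (adjusted p = 0.00159). With sesamin the estimate was 0.48 ± 0.13 (adjusted p = 0.274). Acaca, a carboxylase that makes malonyl-CoA, fell by 0.69 on the log2 scale with episesamin on 1 of its probe sets (adjusted p = 0.0275), and so did Prkab1, a subunit of AMP-activated kinase, by 0.93 (adjusted p = 0.0223). With sesamin Acaca was also at -0.69 ± 0.17 (adjusted p = 0.127), and its other named probe set passed with no lignan. The list's median was -0.15 with episesamin, against -0.016 over all probe sets.

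Acyl-CoA synthetases, which make the substrate of Cpt1, were tested with acyl-CoA binding proteins on 13 probe sets. limma called 0 with sesamin (6 at an unadjusted p below 0.05), while 3 were higher with episesamin and 3 with sesamolin. Acsl3 rose by 1.20 ± 0.17 with episesamin and 0.87 ± 0.17 with sesamolin, and Slc27a2, a very long-chain synthetase, by 0.61 ± 0.08 with episesamin and 0.64 ± 0.08 with sesamolin. Acsl1 rose by 0.46 ± 0.09 with episesamin and 0.36 ± 0.09 with sesamolin on 1 of its probe sets, whereas the other did not pass (adjusted p = 0.148 with episesamin and 0.172 with sesamolin). Downstream of the shuttle, 5 of 18 probe sets of mitochondrial beta-oxidation were higher with sesamin, 12 with episesamin and 12 with sesamolin, with none lower. Their median log2 changes were 0.38, 0.62 and 0.52 with sesamin, episesamin and sesamolin, against -0.0049, -0.016 and -0.011 over all probe sets. Hadha and Hadhb, the 2 subunits of the trifunctional protein, rose by 1.07 ± 0.08 and 1.19 ± 0.09 with episesamin. Of 12 peroxisomal probe sets, 4, 6 and 6 were higher with sesamin, episesamin and sesamolin. Ppara itself was not tested: its probe set exceeded the filter level on 1 of 20 arrays, with mean levels of 6.15 with sesamin, 7.61 with episesamin, 4.94 with sesamolin and 5.64 without lignan. Of 18 tested probe sets for Ppard, Pparg, Rxra, Ppargc1a and 7 other regulators, limma called 0 with any lignan, and 1 with sesamin, 4 with episesamin and 0 with sesamolin had an unadjusted p below 0.05.

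**Figure D5:**
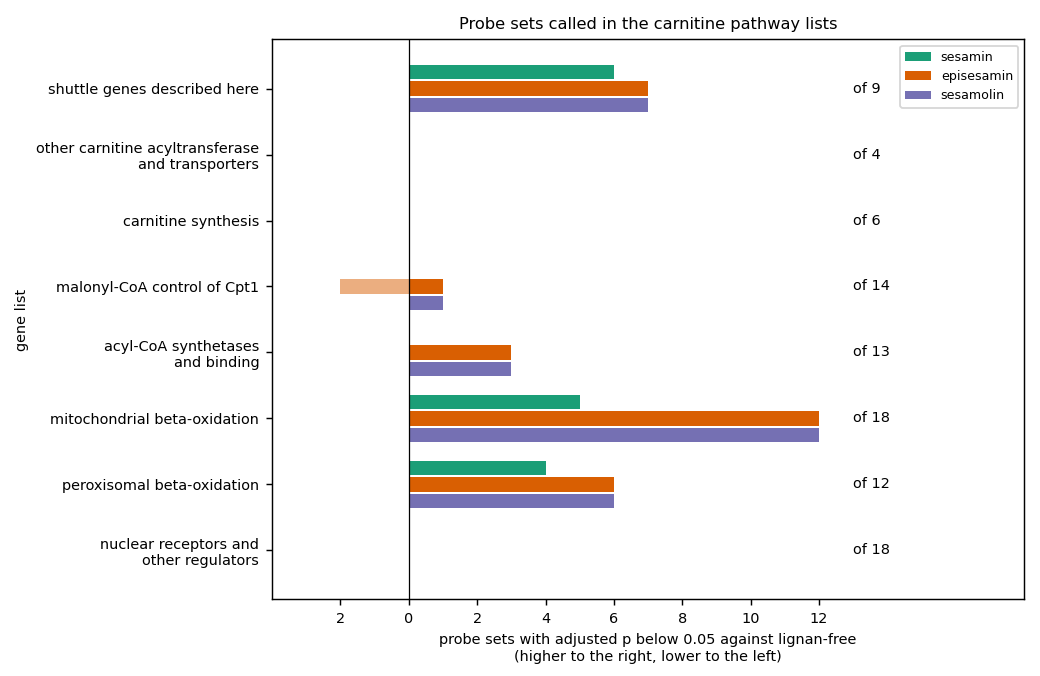
Number of probe sets with an adjusted p below 0.05 against the lignan-free diet (horizontal axis, higher to the right and lower to the left in a paler tint) in 8 gene lists, for sesamin, episesamin and sesamolin, with the number tested at the right. The carnitine shuttle genes have 6, 7 and 7 of 9, while carnitine synthesis has 0 of 6.

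For each member called by the F test, the genes whose values followed it most closely were found from the root-mean-square difference of log2 values relative to the lignan-free mean over the 20 livers. Slc25a20 had the closest followers, Hadhb at 0.15, Hadha at 0.17 and Acad11 at 0.19. Cpt2 was followed by Decr1, a dienoyl-CoA reductase, at 0.22, the lipid droplet protein Plin5 at 0.22 and Nudt7, a peroxisomal CoA diphosphatase, at 0.24. Crot was nearest to Ech1 at 0.25, Hsdl2 at 0.25 and Eci1 at 0.27. Crat was nearest to the thioesterase Acot3 at 0.29, the peroxisomal bifunctional enzyme Ehhadh at 0.35 and Colq at 0.36. Slc22a5 was nearest to the omega-hydroxylase Cyp4a1 at 0.27, Cyp2j4 at 0.28 and Rab30 at 0.29. For Cpt1b the nearest were the peroxisomal thioesterase Acot8 at 0.45, the monoglyceride lipase Mgll at 0.48 and Cidea at 0.49. These distances were the largest, but the measure includes the noise of each probe set. Cpt1b had the largest SE of the members compared (0.26), so the distances do not rank how well the patterns were matched. Acot8 itself had log2 changes of 0.26 with sesamin, 1.43 with episesamin and 1.54 with sesamolin.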

How the data were processed

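Values were read from the series table, in which the authors deposited 1 linear intensity per probe set and array (31099 probe sets, 20 arrays). The authors' software was not given in the sources used here. The raw values ran from 0.0222 to 18018.4. Symbols came from the platform annotation (20832 probe sets with 1 symbol, 436 with several, 9831 unlisted). The arrays were quantile normalized, 5.85 (the 20th percentile) was added, and log2 was taken. Probe sets other than 57 controls were tested if above 17.8 (the 40th percentile) on at least 5 arrays, which left 21067 and 9 of 10 member probe sets. limma 3.58.1 in R 4.3.3 fitted 4 group means to all arrays (16 residual and 2.668 prior degrees of freedom), with two-sided moderated tests, 6 comparisons and an F test, and Benjamini-Hochberg adjustment over the probe sets of a comparison. Intervals cover 95%. The fit was tested on simulated data. All member probe sets are named, with up to 4 probe sets per list by lowest F test p, further ones as contrast or as a second probe set of the same gene. Genes, lists and rules were chosen with earlier results of these data known. Alternatives were other scaling, offsets of 16 or none, filters (none, 60th percentile), probe set choice, variance models, array weights, brightness, dim arrays, only the groups compared, the replicate number as a block, and each array left out. Within-liver differences were computed under the main setting only, with no test. Correlations between arrays of a diet ran from 0.9484 to 0.9746 and no columns were identical.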

Additional observations from a re-analysis of the deposited data

Results flagged for a closer look

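One value stood apart from the other 4 of its diet by Dixon's criterion among 40 groups of 5 arrays screened (10 probe sets in 4 diets), where chance alone gives about 1 in 20. Crat in sesamolin replicate 2 was at 643, against 1384 to 1621 in the other sesamolin livers. The gap took up 0.829 of the group's range on the log2 scale, where 0.71 is the limit.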

How the results depend on the processing

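Each of 54 member changes was recomputed under up to 35 alternatives, 1878 values in all, of which 1778 kept direction and side of the threshold, 67 lost a call, 0 gained one and 33 changed sign, none of them called. Without normalization between arrays the members called numbered 3 with sesamin against lignan-free, 1 for episesamin against sesamin and 2 for sesamolin against sesamin. Median scaling left 4 for episesamin against sesamin, and only the groups compared left 4 for episesamin and 3 for sesamolin against sesamin. The cause was not tested. Leaving out 1 array gave 5 to 6 members called with sesamin, 7 with episesamin and with sesamolin against lignan-free, 7 for episesamin and 5 to 7 for sesamolin against sesamin, and 0 for sesamolin against episesamin.

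Signs changed for the dimmer Cpt1a probe set, episesamin against sesamin, without normalization (-0.13), with array weights (-0.035), without the 6 dim arrays (-0.064) and without the arrays numbered 1 (-0.12). They changed for the brighter Cpt1a probe set, sesamolin against sesamin, without normalization (-0.017) and without the dim arrays (-0.050). For sesamolin against episesamin, leaving out the dim arrays gave 0.038 for Crat, -0.070 for the brightest Crot probe set and -0.0019 for the second. Leaving out 1 array gave ranges across 0 of -0.030 to 0.20 for Cpt1b with sesamin. For Cpt1a they were -0.19 to 0.28 on the dimmer and -0.18 to 0.065 on the brighter probe set (episesamin against sesamin), -0.32 to 0.14 on the dimmer and -0.044 to 0.20 on the brighter (sesamolin against sesamin) and -0.26 to 0.029 on the dimmer (sesamolin against episesamin). For sesamolin against episesamin they were also -0.072 to 0.039 and -0.11 to 0.16 for the brightest and the second Crot probe set, -0.12 to 0.0058 for Cpt2, -0.014 to 0.098 for Slc25a20 and -0.22 to 0.12 for Crat.

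Calls over all probe sets varied more: 54 with sesamin (24 to 94 over the alternatives), 666 with episesamin (280 to 938), 769 with sesamolin (315 to 1109), 175 for episesamin against sesamin (20 to 264), 215 for sesamolin against sesamin (28 to 367), 1 for sesamolin against episesamin (0 to 2) and 620 by the F test (247 to 968). Deviations of same-numbered arrays correlated over 0.1 in 9 of 30 pairs (mean 0.059), against 2 of 120 pairs of different number (mean -0.015). Same-numbered arrays thus shared deviations more often than other arrays did. The labels do not say that the numbers pair the livers, and the main fit has no block for them. All 6 pairs among the 4 arrays numbered 1 were over 0.1 (0.12 to 0.23), and what these arrays share was not tested. Without them the Cpt2 and Slc25a20 calls with sesamin ended (adjusted p = 0.0699 and 0.128), as did those of Cpt2 and Slc22a5 for sesamolin against sesamin (0.0727 and 0.0698). With the replicate block, 6, 7, 7, 7, 7 and 0 members were called in the 6 comparisons and 7 by the F test, with 775 probe sets called over all with episesamin and 885 with sesamolin.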
